A study of Mus musculus with 18 samples.

Results

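The CC chemokine ligands described here are 10 genes of bone marrow-derived macrophages (BMMs), Ccl2, Ccl3, Ccl4, Ccl5, Ccl6, Ccl7, Ccl9, Ccl12, Ccl17 and Ccl22, out of 38887 genes measured in each library. They were chosen by name as the family members to follow over 3 genotypes with and without lipopolysaccharide (LPS), and each was matched to its Ensembl gene by symbol and identifier. Poly(A) RNA of cultured macrophages from female C57BL/6J mice, aged 10 to 23 weeks, was sequenced in 18 libraries, with 3 independent preparations for each of 6 groups. The macrophages had been grown from bone marrow for 6 days with 50 ng/ml M-CSF and were either left untreated or given 100 ng/ml LPS for 4 h. By the study's methods, all 3 genotypes carried Cre recombinase at the Lyz2 locus, where the endogenous promoter drives it in myeloid cells, and mice with this allele alone (B6.129P2-Lyz2tm1(cre)Ifo/J) served as WT. In GILZ KO, loxP sites flanked exon 6 of Gilz (Tsc22d3), which encodes glucocorticoid-induced leucine zipper. In GILZ TG, a Tsc22d3/Gilz-1 cDNA had been knocked into the ROSA26 locus behind a stop cassette that Cre removes. The comparisons ask how LPS and the amount of GILZ go with the ligand transcripts of these cells. As the cells were sequenced in bulk, fewer cells of a type and less RNA per cell cannot be told apart.

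Chemokines of the CC class are small secreted proteins, named after a pair of adjacent cysteines, that guide leukocytes through G protein-coupled CC receptors. CCL2, CCL7 and CCL12 act on CCR2 and recruit monocytes, while CCL3, CCL4 and CCL5 attract monocytes and T cells, CCL3 and CCL5 through CCR1 among others. CCL6 and CCL9 are rodent ligands of CCR1, and CCL17 and CCL22 attract T cells through CCR4. LPS is sensed by Toll-like receptor 4, whose signals reach NF-kB, AP-1 and interferon regulatory factors, and macrophages are a major source of inflammatory CC chemokines.

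On the GRCm38 assembly, 8 of the 10 genes lie on chromosome 11. Ccl2 (chr11:82035571-82037453), Ccl7 (chr11:82045712-82047525) and Ccl12 (chr11:82101845-82103400), the CCR2 ligands, are on the plus strand, with 8.3 kb between Ccl2 and Ccl7. Ccl5 (chr11:83525778-83530518), Ccl9 (chr11:83572919-83578636), Ccl6 (chr11:83587882-83593087) and Ccl3 (chr11:83647844-83649355) are on the minus strand and Ccl4 (chr11:83662584-83664683) is on the plus strand, 13.2 kb from Ccl3. Only 9.2 kb separate Ccl9 from Ccl6. Ccl22 (chr8:94745590-94751699) and Ccl17 (chr8:94810453-94812036) are on the plus strand of chromosome 8. For 6 of the 10 genes a RefSeq promoter of the GRCm38.p6 build was at hand. The 250 bases before the start are shown for 4 of them, 5′ to 3′ on the gene's own strand, since their transcripts behave differently below. Ccl9 and Ccl6 are neighbours of which one was called after LPS in every genotype, Ccl3 was one of 2 ligands called between genotypes, and Ccl17 was at 0 in all but 1 untreated library. Capitals mark matches, on either strand, to an NF-kB consensus, to the AP-1 site (TGANTCA), to the core of the interferon-stimulated response element (GAAA, any 2 bases, GAAA) or to a STAT site (TTC, any 4 bases, GAA). In these windows the matches do not overlap.
Ccl9, chr11:83578637-83578886, minus strand: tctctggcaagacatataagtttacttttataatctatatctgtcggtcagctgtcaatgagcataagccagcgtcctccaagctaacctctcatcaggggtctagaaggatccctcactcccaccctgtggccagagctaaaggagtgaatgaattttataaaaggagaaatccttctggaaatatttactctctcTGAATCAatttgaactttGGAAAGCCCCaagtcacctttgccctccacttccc
Ccl6, chr11:83593088-83593337, minus strand: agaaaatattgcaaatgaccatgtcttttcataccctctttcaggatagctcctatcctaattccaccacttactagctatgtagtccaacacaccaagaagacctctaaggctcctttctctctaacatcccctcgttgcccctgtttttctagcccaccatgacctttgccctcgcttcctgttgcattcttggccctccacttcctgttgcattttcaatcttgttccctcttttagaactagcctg
Ccl3, chr11:83649379-83649628, minus strand: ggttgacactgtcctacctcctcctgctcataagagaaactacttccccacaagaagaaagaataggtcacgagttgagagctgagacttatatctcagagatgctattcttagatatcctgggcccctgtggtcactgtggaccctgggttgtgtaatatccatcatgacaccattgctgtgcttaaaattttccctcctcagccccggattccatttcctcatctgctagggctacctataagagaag
Ccl17, chr8:94810203-94810452, plus strand: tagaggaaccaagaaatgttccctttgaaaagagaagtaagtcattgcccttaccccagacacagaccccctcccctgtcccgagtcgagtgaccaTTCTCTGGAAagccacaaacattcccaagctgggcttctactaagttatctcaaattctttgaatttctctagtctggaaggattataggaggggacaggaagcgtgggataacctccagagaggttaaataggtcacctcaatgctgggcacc

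The Ccl9 window held 1 NF-kB match starting 35 bases before the start and 1 AP-1 match at 53 bases. The Ccl17 window held 1 STAT match at 154 bases. None of the motifs was found in the windows of Ccl6 and Ccl3, nor in those of Ccl12 and Ccl22, which says only that these letters are not in the 250 bases searched. Of all 32851 promoter windows of the same length, 3.9% held the NF-kB consensus, 6.75% the AP-1 site, 2.98% the core of the response element and 5.85% the STAT site.

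Levels are given in TPM, a unit scaled by transcript length and by the total of the library, so that levels can be set side by side between genes. Differences are log2 fold changes of the counts from edgeR with their standard error (SE), and a gene was called when its Benjamini-Hochberg adjusted p over all genes of the fit was below 0.05. Libraries held 14583055 to 38557029 reads on genes, and intervals are 95% intervals. With 3 against 3 libraries, an exact permutation test cannot give a p below 0.1, and single values such as the summed ligand level were therefore not tested. The 8 macrophage markers were present in every group, at a summed 3971 to 5046 TPM. In untreated libraries the target gene followed the labels, as Tsc22d3 was at 14.9 to 18.8 TPM in untreated WT, 1.89 to 2.81 TPM in GILZ KO libraries and 152 to 160 TPM in those of GILZ TG. After LPS, Tsc22d3 was at 4.56 to 5.81 TPM in WT, 2.5 to 3.28 TPM in GILZ KO libraries and 127 to 141 TPM in those of GILZ TG. The libraries of GILZ KO and WT then still did not overlap, but the difference of -0.69 (SE 0.14, adjusted p = 0.150) was not called by edgeR, so that the GILZ KO label was not borne out by a call after LPS. Lyz2, the locus that carries Cre, was at 11048 to 15401 TPM in untreated WT but at 26.7 to 45.8 TPM in GILZ KO libraries and 17.2 to 53.1 TPM in those of GILZ TG. These levels go against the same state of the Lyz2 alleles in WT as in the other genotypes, and in every comparison with WT this difference and the amount of GILZ cannot be told apart.

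In markers of other cells, replicates 1 and 2 of GILZ TG stood apart from replicate 3 and from the other groups. The summed level of 8 stromal fibroblast markers, of which 5 were above 1 TPM in some library, was 101, 115 and 9.75 TPM in the untreated replicates 1, 2 and 3, and 80.2, 109 and 10.3 TPM after LPS. In the other groups it was between 4.88 and 21.8 TPM. Transcripts of the neutrophil lineage gave 187, 483 and 68.3 TPM untreated and 218, 516 and 83.5 TPM after LPS, against 20.7 to 77.2 TPM elsewhere. By these sums replicate 3 lay within or just above the range of the other groups. Results on GILZ TG are also given without replicate 3 where they turn on it. This keeps the 2 libraries with the high marker sums, and no fit was made without both replicates 1 and 2.

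Untreated macrophages of all 3 genotypes already held large amounts of CC ligand transcripts, in the same order of mean levels. Ccl9 was highest, followed by Ccl2, Ccl6, Ccl7, Ccl3, Ccl4, Ccl12, Ccl5, Ccl22 and Ccl17. In WT, mean levels were 3123 ± 57.5 TPM (SD, n = 3) for Ccl9 and 1644 ± 306 TPM for Ccl2. Ccl12 stood at 24.0 ± 7.67 TPM and Ccl5 at 4.34 ± 0.0781 TPM. Between neighbours in this order, libraries overlapped for Ccl6 and Ccl7 in WT and GILZ TG, and for Ccl22 and Ccl17 in GILZ TG. Together the 10 genes made up 0.571% to 0.831% of all TPM in an untreated library and 4.15% to 5.23% after LPS.

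**Figure D1:**
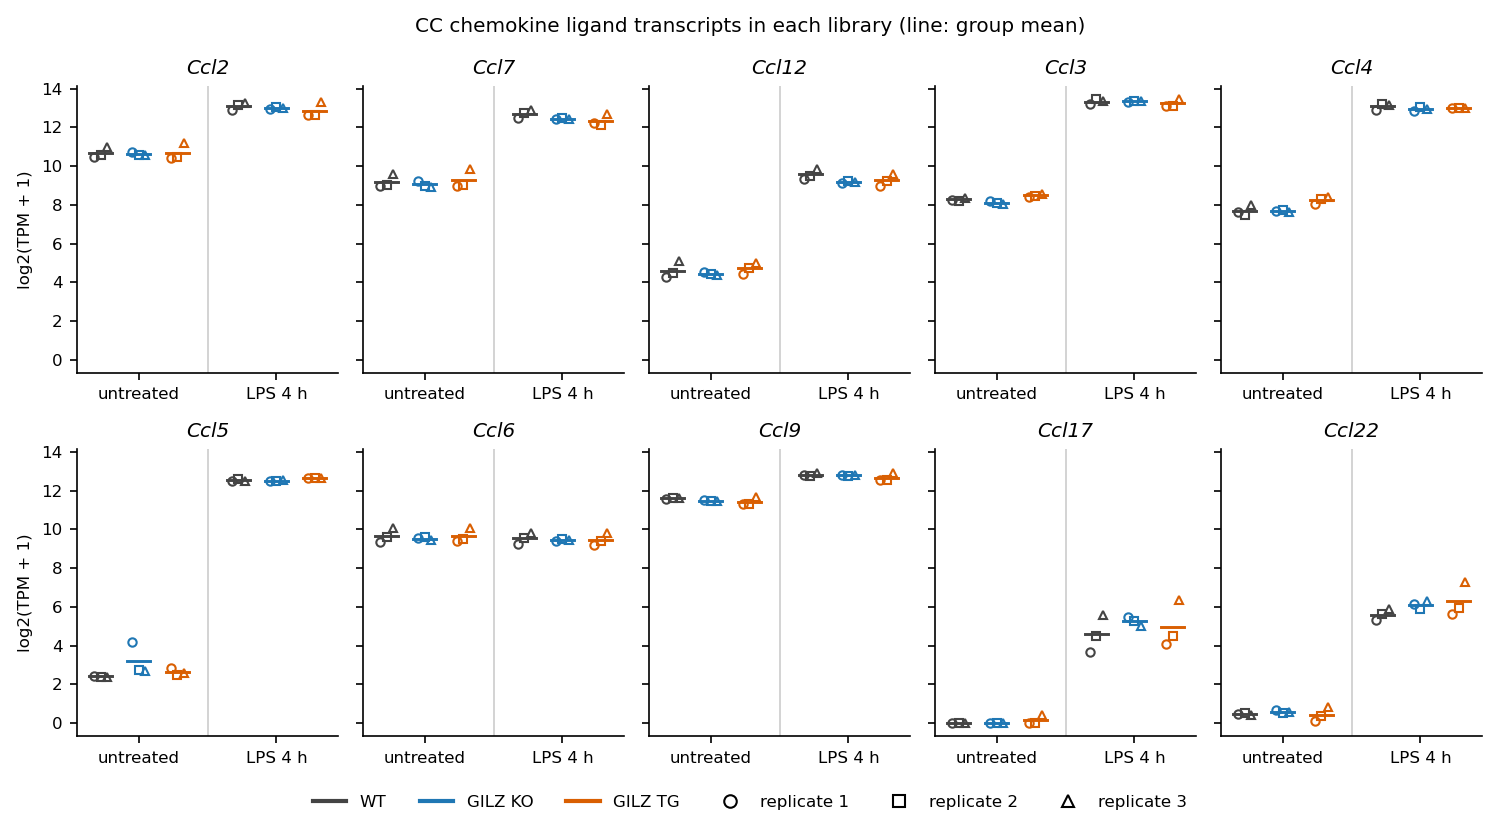
Level of each CC chemokine ligand in each library, as log2(TPM + 1), untreated and after 4 h LPS; symbols mark the replicate and lines the mean of 3. All panels but that of Ccl6 show every LPS library above every untreated library, and Ccl17 is at 0 TPM in 8 of 9 untreated libraries.

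After LPS, 9 of the 10 ligands were higher in every genotype, in WT from 3.79-fold for Ccl9 to 2120-fold for Ccl5. With Ccl6, 10 of 10 were called in GILZ KO, while 9 of 10 were called in WT and in GILZ TG. Among all 13169 genes of the fit, 33.5% were called higher in WT, 33.2% in GILZ KO and 33.6% in GILZ TG. LPS libraries lay above all untreated libraries in TPM for 9 of 10 ligands in each genotype, against 16.3%, 16.4% and 15.7% of all genes, in the same order. Ccl17 is included in these counts. It passed the filter on low counts through its LPS libraries alone, so that its call and its lack of overlap add no support. Over the ligands the log2 fold change had a median of 5.66 in WT, 5.66 in GILZ KO and 5.30 in GILZ TG, where that of all genes was -0.02 in each. In WT the log2 fold changes other than that of Ccl17 ran from 0.45 for Ccl6 to 11.05 for Ccl5. On log2(TPM + 1) with limma the responses were smaller by 0.55 to 0.93 for the ligands other than Ccl17 and Ccl22. In WT, Ccl9 then rose by 1.22 and Ccl2 by 2.43, and Ccl22 by 5.14, on a scale that understates the change of low genes.

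**Figure D2:**
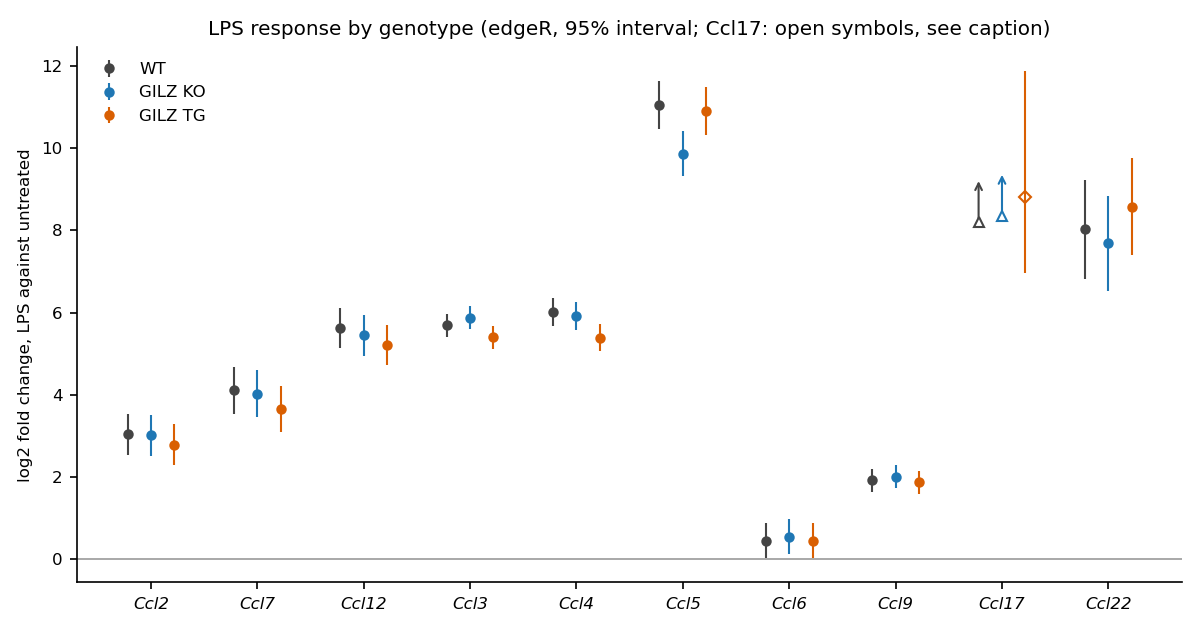
log2 fold change of each ligand between LPS and untreated libraries in each genotype, with its 95% interval (edgeR). Open triangles with arrows mark lower bounds for Ccl17, which was at 0 counts in untreated WT and GILZ KO, and the open diamond marks its ratio of counts in GILZ TG with a counting interval. Ccl5 stands near 10 to 11, Ccl6 near 0.5.

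Among the CCR2 ligands, Ccl2 started high and rose moderately. Its untreated levels were 1412, 1529 and 1991 TPM in the WT libraries, 1681, 1518 and 1493 TPM in those of GILZ KO and 1376, 1392 and 2343 TPM in those of GILZ TG. After LPS they were 7565, 8940 and 9919 TPM in the WT libraries, 7886, 8464 and 8197 TPM in those of GILZ KO and 6373, 6326 and 10012 TPM in those of GILZ TG. Treated and untreated libraries did not overlap, and the log2 fold change was 3.04 (SE 0.24) in WT, 3.02 (SE 0.24) in GILZ KO and 2.79 (SE 0.23) in GILZ TG. Its neighbour Ccl7, another attractant of monocytes, went from 494, 511 and 774 TPM to 5634, 6776 and 7585 TPM in WT. In GILZ KO, Ccl7 went from 607, 507 and 487 TPM to 5532, 5754 and 5476 TPM, and in GILZ TG from 507, 520 and 931 TPM to 4708, 4428 and 6645 TPM. On the log2 scale Ccl7 rose by 4.11 in WT, 4.03 in GILZ KO and 3.65 in GILZ TG, with an SE of 0.26 to 0.27. Ccl12 was the least abundant CCR2 ligand and had the largest response of the 3, from 18.2, 21.1 and 32.7 TPM to 653, 719 and 931 TPM in WT. It reached 555, 607 and 585 TPM in GILZ KO libraries and 501, 595 and 764 TPM in those of GILZ TG, from untreated levels between 19.6 and 30.8 TPM in these genotypes. The log2 fold change of Ccl12 was 5.63 (SE 0.23), 5.45 (SE 0.24) and 5.22 (SE 0.23) in WT, GILZ KO and GILZ TG.

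Ccl3 and Ccl4, which encode macrophage inflammatory proteins, went from the middle of the list to its top. Ccl3 was at 307, 293 and 330 TPM in untreated WT and at 9432, 11115 and 10429 TPM after LPS. In GILZ KO it went from 293, 267 and 261 TPM to 10075, 10396 and 10545 TPM, and in GILZ TG from 338, 353 and 382 TPM to 8876, 8920 and 11255 TPM. The log2 fold change of Ccl3 was 5.69 (SE 0.13), 5.88 (SE 0.13) and 5.40 (SE 0.13) in WT, GILZ KO and GILZ TG. Ccl4 in WT went from 195, 179 and 252 TPM to 7687, 9468 and 9004 TPM. In GILZ KO its levels were 201, 212 and 200 TPM before and 7401, 8364 and 7942 TPM after LPS. In GILZ TG, Ccl4 started higher, at 262, 318 and 331 TPM, and reached 8185, 8084 and 8305 TPM. Its log2 fold change was 6.01 (SE 0.16) in WT, 5.91 (SE 0.16) in GILZ KO and 5.39 (SE 0.15) in GILZ TG.

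Ccl5, which attracts T cells and monocytes through CCR1 among others, was close to silent in untreated cells and had the largest fitted response of the ligands other than Ccl17. Untreated levels were 4.43, 4.29 and 4.30 TPM in the WT libraries, 17.1, 5.63 and 5.44 TPM in those of GILZ KO and 6.08, 4.52 and 4.94 TPM in those of GILZ TG. After LPS, Ccl5 was at 5763, 6203 and 5844 TPM in the WT libraries, 5764, 5813 and 6014 TPM in those of GILZ KO and 6348, 6333 and 6336 TPM in those of GILZ TG. Replicate 1 of untreated GILZ KO stood well above the other 2 libraries of its group, while the LPS libraries lay close together. The log2 fold change of Ccl5 was 11.05 (SE 0.27) in WT, 9.87 (SE 0.26) in GILZ KO and 10.90 (SE 0.27) in GILZ TG, and in GILZ KO it carries that 1 library.

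The CCR1 ligands Ccl9 and Ccl6 were the least responsive, and they differed from each other although they are neighbours on the chromosome. Ccl9 was at 3080, 3188 and 3102 TPM in untreated WT, 2917, 2868 and 2793 TPM in GILZ KO libraries and 2530, 2532 and 3224 TPM in those of GILZ TG. LPS brought Ccl9 to 7250, 7005 and 7591 TPM in the WT libraries, 7273, 6978 and 7259 TPM in those of GILZ KO and 5974, 6062 and 7740 TPM in those of GILZ TG. Every LPS library was above every untreated one, and Ccl9 rose by 1.92 (SE 0.13), 2.0 (SE 0.13) and 1.87 (SE 0.13) on the log2 scale in WT, GILZ KO and GILZ TG. Ccl6 was at 652, 768 and 1075 TPM in untreated WT and at 598, 745 and 908 TPM after LPS. It went from 742, 783 and 691 TPM to 668, 733 and 704 TPM in GILZ KO, and from 670, 739 and 1066 TPM to 593, 666 and 907 TPM in GILZ TG. Libraries with and without LPS overlapped in every genotype. The direction of Ccl6 depended on the scale, as the log2 fold change of the counts under edgeR's scaling was 0.45 (SE 0.20, adjusted p = 0.0567) in WT, 0.55 (SE 0.20, adjusted p = 0.0224) in GILZ KO and 0.45 (SE 0.20, adjusted p = 0.0563) in GILZ TG. On log2(TPM + 1) with limma, the difference was -0.14, -0.07 and -0.19, and none of these was called. The median of all genes was -0.51 to -0.52 on that scale and -0.02 on edgeR's, so that Ccl6 lay above the median gene on both. The call in GILZ KO was lost without GILZ KO replicate 1 or 3 untreated or replicate 2 or 3 after LPS, at 0.48 to 0.54. In GILZ TG, where libraries of the same number deviated together, Ccl6 was called with the replicate number as a block (0.45, adjusted p = 1.9e-05). The other 9 ligands were called higher in all 27 alternative settings in each genotype, with the limit given above for Ccl17.

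The CCR4 ligands Ccl17 and Ccl22 were near or at 0 in untreated cells and stayed the lowest of the 10 after LPS. Ccl17 had no count in untreated WT and GILZ KO and 2 counts in GILZ TG replicate 3 (0.33 TPM). After LPS it was at 11.6, 21.9 and 47.3 TPM in the WT libraries, 43.9, 38.2 and 31.9 TPM in those of GILZ KO and 16.2, 21.6 and 80.8 TPM in those of GILZ TG. The libraries of WT and GILZ TG spread widely, and those of GILZ KO lay within the range of both. Against a floor of 3 counts over the untreated group, Ccl17 was at least 295-fold higher after LPS in WT and at least 328-fold higher in GILZ KO. In GILZ TG the ratio of 724 to 2 counts, each per effective library size, was 453, with a counting interval from 125 to 3750. Both untreated counts were in replicate 3, and without it Ccl17 was at least 116-fold higher after LPS in GILZ TG, against the same floor. The medians of the ligands were the same with Ccl17 set to its bound. Ccl22 was between 0.08 and 0.78 TPM in all untreated libraries. After LPS, Ccl22 was at 38.6, 48.3 and 57.8 TPM in the WT libraries, 70.1, 58.2 and 76.6 TPM in those of GILZ KO and 47.8, 60.2 and 156 TPM in those of GILZ TG. It rose by 8.02 (SE 0.57), 7.68 (SE 0.54) and 8.58 (SE 0.56) on the log2 scale in WT, GILZ KO and GILZ TG. Of 10 dendritic cell markers, which mark another source of these ligands, 2 were above 1 TPM in some library. The list summed to 6.12 to 8.46 TPM in untreated WT and GILZ KO and to 11.9 to 25.5 TPM in GILZ TG. After LPS it summed to 22.8 to 25.5 TPM in WT, 27.01 to 34.05 TPM in GILZ KO and 28.0 to 43.3 TPM in GILZ TG. Of the list, Itgax (1 of 4 tested) was called higher in GILZ TG against WT in both treatments. Of all genes, 0.642% untreated and 0.46% after LPS were called in that pair. The part of dendritic cells in Ccl17 and Ccl22 was not tested.

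Without GILZ TG replicate 3, the responses in GILZ TG kept their direction and, for the 9 ligands called, their call. Of 13383 genes, 31.7% were called higher in GILZ TG in that setting. The log2 fold changes were then 2.81 for Ccl2, 3.77 for Ccl7, 5.17 for Ccl12, 5.30 for Ccl3 and 5.42 for Ccl4. Ccl5 was at 10.86, Ccl9 at 1.88, Ccl6 at 0.45 (adjusted p = 0.0501) and Ccl22 at 9.07, the latter against 8.58 with all libraries.

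The make-up of the ligand transcripts differed after LPS. Ccl9 made up 38.8% to 50.0% of the summed ligand TPM in untreated libraries and 13.7% to 16.2% after LPS. Ccl6 went from 10.6% to 14.2% of the sum down to 1.34% to 1.74%. Ccl3 took 4.33% to 6.01% before and 19.9% to 22.5% after, and Ccl4 2.76% to 5.40% before and 15.9% to 19.7% after. Ccl5 had at most 0.264% of the sum in an untreated library and 11.2% to 15.3% after LPS. Ccl2 went from between 22.9% and 28.2% to between 15.2% and 19.2%, while the shares of Ccl7 (7.87% to 11.2% before, 10.7% to 14.5% after) overlapped. After LPS, Ccl3 had the highest mean level in all genotypes, with 10325 ± 846 TPM in WT libraries, 10339 ± 240 TPM in those of GILZ KO and 9684 ± 1361 TPM in those of GILZ TG. In WT the libraries of Ccl3 overlapped with those of Ccl2, as did Ccl2 with Ccl4, Ccl9 with Ccl7, Ccl7 with Ccl5, Ccl12 with Ccl6 and Ccl22 with Ccl17. In GILZ KO, whose libraries varied least, the only such neighbours in the order were Ccl2 and Ccl4.

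**Figure D3:**
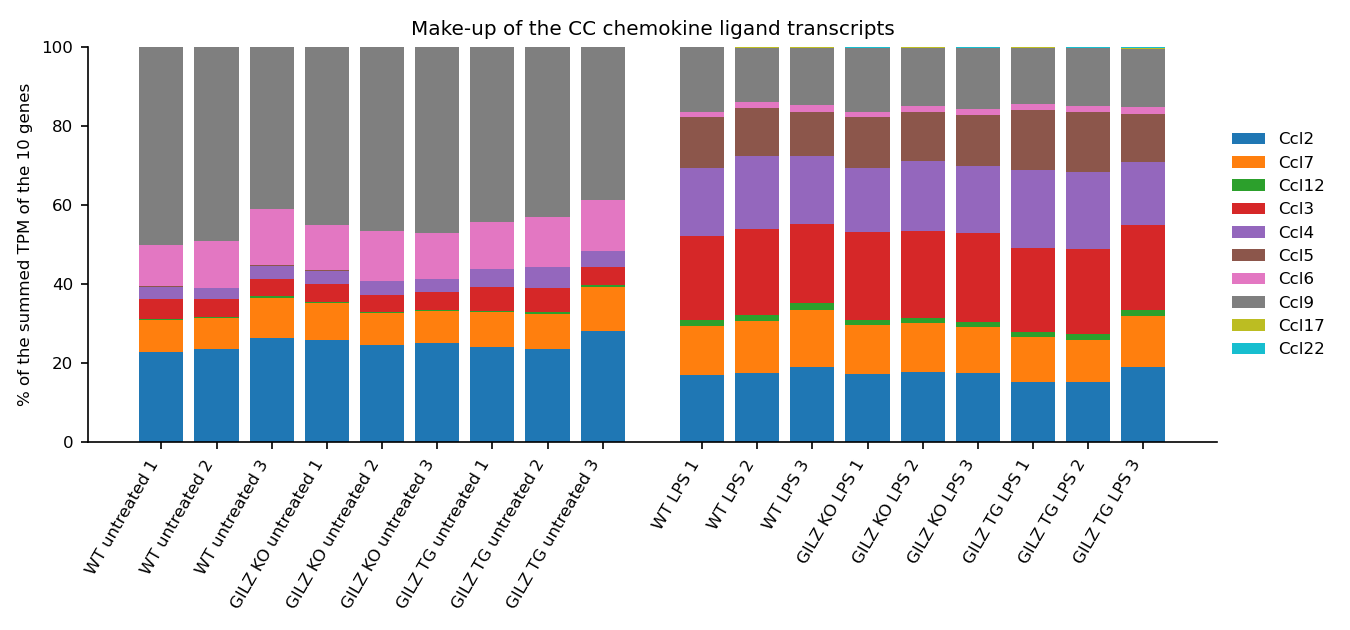
Share of each ligand in the summed TPM of the 10 genes, in percent, with 1 bar per library. Ccl9 (grey) fills 38.8% to 50.0% of the untreated bars and 13.7% to 16.2% of the LPS bars, where Ccl3 (red), Ccl4 (purple) and Ccl5 (brown) take up more room.

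Whether the genotypes differed in the size of the LPS response was asked of each ligand by an interaction term in the fit of all 18 libraries. By edgeR, 0 of 10 ligands were called for GILZ KO against WT, for GILZ TG against WT and for GILZ KO against GILZ TG, where 0.0152%, 0.00759% and 0.121% of all 13169 genes were called. DESeq2 and limma also called 0 ligands in each. At an unadjusted p below 0.05 there were 1, 1 and 3 ligands, against 6.36%, 3.09% and 9.92% of all genes. This fit leaves aside that libraries of a number may share a preparation. With the replicate number as a block in edgeR, again no ligand was called. The lowest adjusted p was then 0.327 for Ccl5, 0.485 for Ccl4 (-0.64, SE 0.15) and 0.0646 for Ccl3 (0.49, SE 0.12), in the same order. Ccl5 gave -1.18 (SE 0.37, adjusted p = 0.632) in GILZ KO against WT, and -0.35 (adjusted p = 1) without untreated GILZ KO replicate 1. Ccl4 gave -0.63 (SE 0.18, interval -1.01 to -0.24, adjusted p = 1) in GILZ TG against WT. In GILZ KO against GILZ TG, Ccl3 gave 0.48 (SE 0.15, adjusted p = 0.234), Ccl4 gave 0.53 (SE 0.18, adjusted p = 0.284) and Ccl5 gave -1.03 (SE 0.37, adjusted p = 0.301). Without GILZ TG replicate 3 in both treatments, Ccl3 was called at 0.57 (adjusted p = 0.0446). In that setting, chosen after seeing the data, 0.762% of 13383 genes were called for this pair and 0.493% were called higher. Ccl17 is among the 10 genes fitted, but no value is given for it, as untreated WT and GILZ KO were at 0 counts and GILZ TG at 2.

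In untreated macrophages, GILZ KO had less Ccl3 and Ccl4 transcript than GILZ TG, and no other ligand was called in any pair of genotypes. Ccl17 was left out by the filter on low counts, so that 9 of the 10 ligands were tested among 12621 genes. In GILZ KO against GILZ TG, 2 of 9 ligands were called, both lower, where 4.94% of all genes were called and 2.16% were called lower. At an unadjusted p below 0.05 there were the same 2 ligands, against 24.6% of all genes. The 3 GILZ KO libraries of Ccl3 (261 to 293 TPM) lay below the 3 GILZ TG libraries (338 to 382 TPM), with WT at 293 to 330 TPM. The log2 fold change of Ccl3 was -0.42 (SE 0.08, interval -0.60 to -0.24, adjusted p = 0.0234). Ccl4 was at 200 to 212 TPM in GILZ KO and at 262 to 331 TPM in GILZ TG, with WT at 179 to 252 TPM. Its log2 fold change was -0.61 (SE 0.14, interval -0.92 to -0.29, adjusted p = 0.0416). These were also the ligands without overlap of the libraries in this pair, where 10.1% of all genes were lower without overlap. Both calls were close to the threshold in edgeR, while DESeq2 gave adjusted p = 0.00012 for Ccl3 and 0.000931 for Ccl4. Over the alternatives the log2 fold change ran from -0.47 to -0.37 for Ccl3 and from -0.71 to -0.54 for Ccl4. Ccl3 was called in 15 of 19 alternatives and was lost without GILZ KO replicate 1, 2 or 3 or GILZ TG replicate 2, with an adjusted p of at most 0.0971. Ccl4 was called in 9 of 19 and was lost with limma at both pseudocounts, without WT replicate 2 and without any one of the GILZ KO or GILZ TG replicates, with an adjusted p of at most 0.153. Its value without GILZ TG replicate 3 was -0.54 (adjusted p = 0.0506). The stromal genes Col1a1, Col1a2 and Col3a1 (3 of 5 tested) and the neutrophil genes S100a9 and Ltf (2 of 4) were also called lower in this pair. So were the dendritic cell marker Itgax (1 of 4), the macrophage marker Fcgr1 (1 of 8) and the monocyte gene Ly6c2 (1 of 3). The median log2 fold change was 0.0076 over the macrophage markers and 0.61 over the monocyte genes. The B cell gene Cd79b (1 of 1) was called higher. The GILZ TG library with the lowest stromal and neutrophil sums, replicate 3, had the highest GILZ TG levels of Ccl3 and Ccl4, as of 9 of 10 ligands. The part of these cells in the difference between the genotypes was not tested.

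Against WT, untreated ligands were not called in either genotype. In GILZ KO against WT, 0 of 9 ligands were called by edgeR, DESeq2 and limma, where edgeR called 0.0951% of all genes, and 2 had an unadjusted p below 0.05, as had 9.6% of all genes. These were Ccl3, at -0.23 (SE 0.08, interval -0.41 to -0.04, adjusted p = 0.444), and Ccl5, at 1.07 (SE 0.41, interval 0.15 to 1.99, adjusted p = 0.483). Ccl5 was at 0.30 (adjusted p = 0.90) without GILZ KO replicate 1, the library at 17.1 TPM. Libraries did not overlap for 3 ligands, Ccl5 higher and Ccl3 and Ccl9 lower in GILZ KO, where 17.2% of all genes did not overlap. For Ccl3 the gap was very small, with the highest GILZ KO library at 292.61 TPM and the lowest WT library at 292.86 TPM. In GILZ TG against WT, edgeR and limma called 0 of 9 ligands and DESeq2 called 1, with 0.642% of all genes called by edgeR. Ccl4 was at 0.53 (SE 0.14, interval 0.21 to 0.84, adjusted p = 0.144) and Ccl3 at 0.19 (SE 0.08, adjusted p = 0.323), both with an unadjusted p below 0.05, as had 14.1% of all genes. Ccl4 was called by DESeq2 at 0.53 (adjusted p = 0.0146) and by edgeR without WT replicate 3 at 0.72 (adjusted p = 0.0201). Without GILZ TG replicate 3, Ccl9 was called lower in GILZ TG, at -0.36 (SE 0.07, adjusted p = 0.0220), against -0.18 (SE 0.12, adjusted p = 0.551) with it. In that setting 5.16% of 12893 genes were called and 1.72% were called lower. The untreated replicates 1 and 2, which remain, had 101 and 115 TPM of stromal and 187 and 483 TPM of neutrophil markers. The part of these cells in Ccl9 was not tested. With all libraries, those of Ccl3, Ccl4 and Ccl5 were higher in GILZ TG without overlap in TPM, and 14.9% of all genes did not overlap in this pair. For Ccl5 this rests on few reads, with 31 to 33 counts per library in GILZ TG and 29 to 33 in WT.

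**Figure D4:**
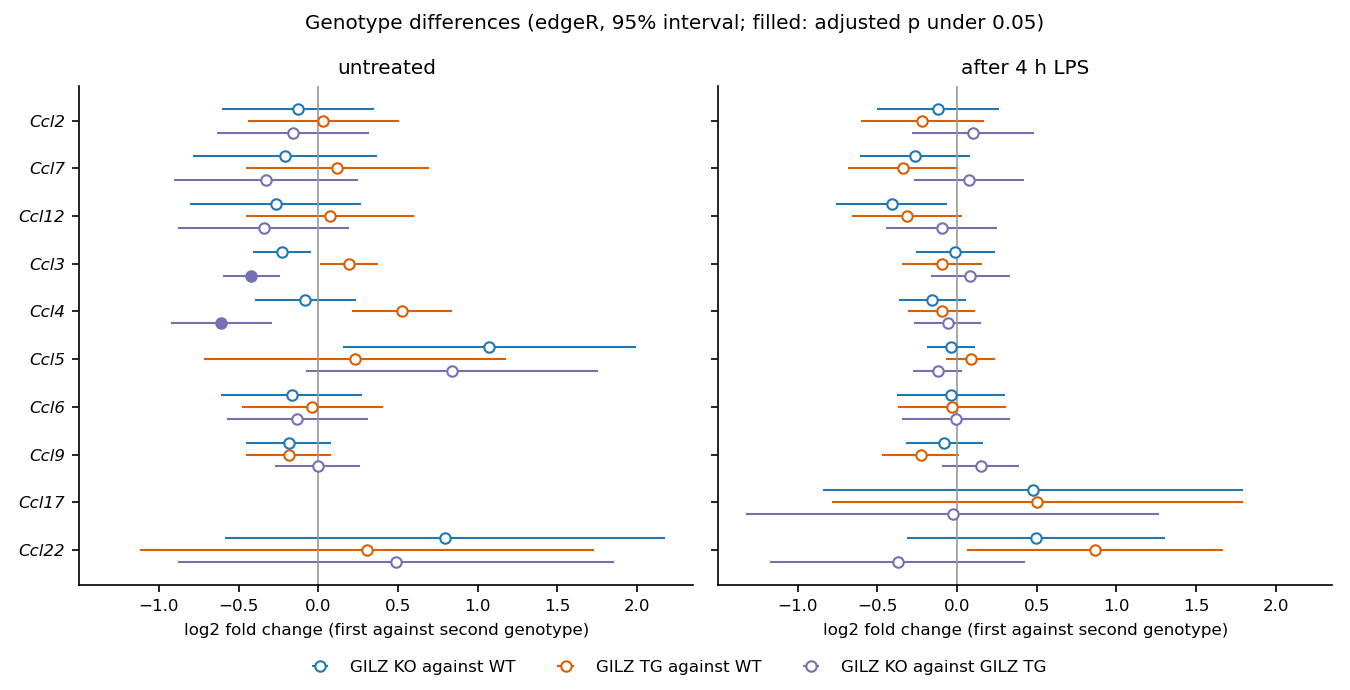
log2 fold change between genotypes for each ligand with its 95% interval (edgeR), untreated (left) and after LPS (right); filled points mark an adjusted p below 0.05. Ccl3 and Ccl4 in untreated GILZ KO against GILZ TG are the only filled points, and most intervals after LPS lie within 0.5 of 0, apart from Ccl17 and Ccl22 and the lower ends of Ccl2, Ccl7 and Ccl12.

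After LPS, 0 of 10 ligands were called by edgeR, DESeq2 or limma in any pair of genotypes among 12164 genes, of which edgeR called 0.0822% for GILZ KO against WT, 0.46% for GILZ TG against WT and 2.6% for GILZ KO against GILZ TG. At an unadjusted p below 0.05 there were 1, 1 and 0 ligands, against 9.63%, 15.2% and 19.1% of all genes. Ccl12, at 555 to 607 TPM in GILZ KO and 653 to 931 TPM in WT, gave -0.41 (SE 0.16, interval -0.76 to -0.06, adjusted p = 0.445). Ccl22 in GILZ TG against WT gave 0.87 (SE 0.36, interval 0.06 to 1.67, adjusted p = 0.284), which rested on replicate 3 at 156 TPM and was 0.14 (adjusted p = 0.626) without it. For Ccl5, the intervals of the differences between genotypes lay within -0.28 to 0.24, and for Ccl4 within -0.37 to 0.15. They were wider for Ccl2, from -0.60 to 0.48. Libraries without overlap were those of Ccl22 (higher) and Ccl12 (lower) in GILZ KO against WT, where 16.3% of all genes did not overlap. Ccl5 was without overlap higher in GILZ TG than in WT (15.2% of all genes) and lower for GILZ KO against GILZ TG (20.6%).

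The calls after LPS depended on GILZ TG replicate 3. In the remaining libraries of GILZ TG against WT, 4 ligands were called lower, namely Ccl2 at -0.49 (SE 0.10, adjusted p = 0.0162), Ccl7 at -0.57 (SE 0.11, adjusted p = 0.0119), Ccl9 at -0.39 (SE 0.07, adjusted p = 0.00649) and Ccl12 at -0.51 (SE 0.13, adjusted p = 0.0333). With all libraries the same ligands were at -0.22 (SE 0.17, adjusted p = 0.606), -0.34 (SE 0.16, adjusted p = 0.339), -0.23 (SE 0.11, adjusted p = 0.360) and -0.31 (SE 0.16, adjusted p = 0.379). Ccl17 went from 0.50 (adjusted p = 0.741) to -0.55 (adjusted p = 0.451) in GILZ TG against WT, with no call in either. In GILZ KO against GILZ TG, Ccl2 at 0.38 (adjusted p = 0.0408) and Ccl9 at 0.31 (adjusted p = 0.0147) were then called higher. The count of called genes over the whole table moved too, from 56 to 1067 for GILZ TG against WT (8.52% of 12524 genes, 4.07% lower) and from 316 to 1403 for GILZ KO against GILZ TG (11.2%, 5.23% higher). Replicates 1 and 2, which remain, are the libraries with 80.2 and 109 TPM of stromal and 218 and 516 TPM of neutrophil markers after LPS. The part of these cells in the lower ligand levels was not tested.

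The library itself was high in ligands. GILZ TG replicate 3 had the highest GILZ TG level of 9 of 10 ligands in both treatments, all but Ccl5. Of all 13169 genes, 33.1% untreated and 29.8% after LPS were highest of GILZ TG in it. It lay above all WT and GILZ KO libraries for 7 ligands untreated and for 6 after LPS, Ccl5 among the latter, against 17.8% and 11.6% of all genes. Its level over the mean of replicates 1 and 2 was 1.69 untreated and 1.58 after LPS for Ccl2, and 1.81 and 1.46 for Ccl7. For Ccl22 the ratio was 4.46 and 2.89, and for Ccl17 after LPS it was 4.28. For Ccl5 it was 0.932 and 0.999. Over the ligands, the median log2 ratio to the WT mean in untreated GILZ TG replicates 1, 2 and 3 was -0.23, -0.17 and 0.36, and after LPS -0.31, -0.24 and 0.11. A smaller difference of the same kind was present in WT, where replicate 3 was highest for 6 ligands untreated and 7 after LPS, against 25.6% and 41.3% of all genes. The highest level over the lowest within a group had a median over the ligands of 1.41 in WT, 1.13 in GILZ KO and 1.48 in GILZ TG untreated, and of 1.33, 1.08 and 1.51 after LPS.

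**Figure D5:**
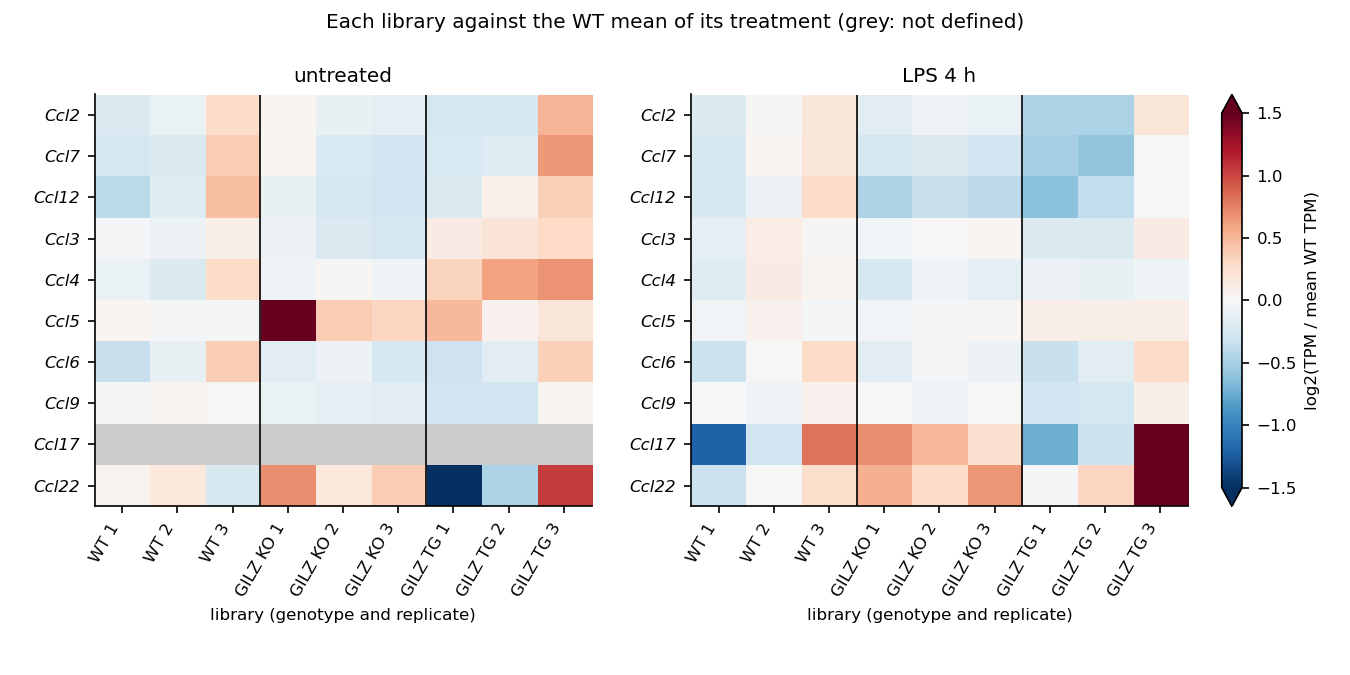
log2 ratio of each library to the mean WT level (TPM) of its treatment for each ligand; red is higher and blue lower, colours end at 1.5, and grey marks Ccl17 where the WT mean is 0. The column of GILZ TG replicate 3 is red for most ligands in both treatments, replicates 1 and 2 are blue for Ccl2, Ccl7, Ccl9 and Ccl12 after LPS, and Ccl5 in untreated GILZ KO replicate 1 is the darkest cell of its row.

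The ligands that varied together were described by the deviation of log2(TPM + 1) from the mean of the 9 libraries of the same treatment. Correlations were taken over the 18 libraries, among 9423 genes of at least 5 TPM in mean level. They include differences between genotypes, share library depth and preparation, and were not tested. They also include GILZ TG replicate 3, the highest GILZ TG library for 9 of 10 ligands in both treatments, and were not computed without it. Ccl2 and Ccl7 were nearest to each other of all genes, with r = 0.957. Ccl6 was near to Ctdnep1 (r = 0.901) and Ccl2 (r = 0.899), and Ccl12 to Ccl6 (r = 0.876) and Ccl7 (r = 0.873). The pattern nearest to Ccl3 was that of Fam174a (r = 0.850), for Ccl4 it was Pttg1 (r = 0.859) and for Ccl9 it was Cct4 (r = 0.897). Ccl22 was nearest to Cx3cr1 (r = 0.895) and was near to Ccl17 (r = 0.823), and Ccl17 was nearest to Trim36 (r = 0.917). Ccl5 was nearest to Wdr89 (r = 0.856) and Mx1 (r = 0.843), the latter an interferon-induced antiviral GTPase. In untreated GILZ KO, Mx1 was at 8.91, 5.19 and 3.63 TPM, with the highest level in replicate 1, where Ccl5 was highest, against 2.69 to 3.81 TPM in WT and GILZ TG. Wdr89 was at 14.5 TPM in that library, against 7.49 to 8.81 TPM in the other untreated libraries. The correlations of Ccl5 lean on this 1 library and were not computed without it.

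Of the 11 other CC ligand genes looked at, 4 passed the filter on low counts in the LPS fit and 2 were called, both higher in every genotype, where 33.2% to 33.6% of all genes were called higher. Ccl8, a further monocyte attractant, went from 0.14, 0.28 and 0.47 TPM to 32.2, 32.8 and 26.5 TPM in WT, a log2 fold change of 7.23 (SE 0.41), with 6.46 in GILZ KO and 6.43 in GILZ TG. Ccl24 reached at most 2.17 TPM, and rose by 4.30, 4.67 and 4.32 on the log2 scale in WT, GILZ KO and GILZ TG. Ccl25 was at 5.05 to 9.66 TPM in untreated libraries and was not called. Of 14 receptors of the family, 5 were tested and 4 were called higher in each genotype, against the same share of all genes. Ccr1, the receptor of CCL3, CCL5, CCL6 and CCL9, rose by 1.79, 1.82 and 1.44 in WT, GILZ KO and GILZ TG. Ccrl2, an atypical receptor of the family that binds chemerin, went from 1.72, 1.69 and 1.79 TPM to 288, 292 and 311 TPM in WT and rose by 8.05, 7.98 and 7.91 in the 3 genotypes. Ccr3 rose by 1.88, 2.01 and 1.81, and Ccr9, at most 1.19 TPM in any library, by 5.11, 3.69 and 4.29. Ccr2, the receptor of the CCR2 ligands, was at 0.29 (SE 0.34), -0.02 (SE 0.35) and 0.56 (SE 0.35) and was not called. No other ligand and no receptor was called by edgeR between genotypes in either treatment.

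Among 22 transcriptional regulators known to act on chemokine genes, all were tested and 18 were called higher and 4 lower after LPS in each genotype. Of all genes, 33.5%, 33.2% and 33.6% were called higher and 35.1%, 35.4% and 35.1% lower in WT, GILZ KO and GILZ TG. In WT, Nfkb1 rose by 3.0 (SE 0.07), Nfkbiz by 5.24 (SE 0.11), Irf1 by 4.40 (SE 0.08) and Irf7 by 6.21 (SE 0.20), while Irf3, Stat6, Fos and Jun fell. Irf8 was called higher at 0.50 (SE 0.10) in WT under edgeR's scaling, while its mean level was 96.3 TPM before and 89.8 TPM after LPS. Of 8 regulators of mRNA decay, 4, 4 and 5 were called higher and 3, 3 and 3 lower in WT, GILZ KO and GILZ TG, shares near those of all genes for the lower calls. Zfp36, which encodes tristetraprolin, a protein that promotes the decay of AU-rich mRNAs, rose by 3.49 (SE 0.10) in WT, and its relative Zfp36l1 fell by 2.07 (SE 0.16). Between genotypes, Junb (-0.38, SE 0.07, adjusted p = 0.0219) and Zfp36l1 (-0.72, SE 0.12, adjusted p = 0.0140) were lower in GILZ KO against GILZ TG before LPS, as 1 of 22 and 1 of 8 genes, where 4.94% of all genes were called. After LPS, Irf1 (-0.45, SE 0.09, adjusted p = 0.0323) and Irf8 (-0.57, SE 0.11, adjusted p = 0.0285) were lower in GILZ KO against GILZ TG, 2 of 22 genes against 2.6% of all genes. No other regulator on these lists was called in any pair of genotypes.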

How the data were processed

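Poly(A) RNA of 18 macrophage libraries was sequenced as single reads of 75 nt with a strand-specific kit. Per the submitters' processing notes and the study's methods, the authors checked reads with FastQC 0.11.2 and mapped them to GRCm38 with grape-nf. The aligner and the annotation release are not given in the sources used here. Per library, the deposited tables give for 38887 genes an expected count, which is an estimate of the reads and is not normalized, and the TPM. The layout of the columns is that of RSEM. They also hold the posterior SD of the count, a deposited signal of how reads were split, which was 0 for all ligands but Ccl9 in 1 library. The authors' 9 DESeq2 1.40.2 comparison tables hold a mean normalized count, itself a deposited signal column, and their own fold changes and p-values. Only the pairs of identifier and symbol were taken from them.

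Expected counts were rounded, filtered with filterByExpr, scaled by TMM and put through edgeR's quasi-likelihood test (edgeR 4.0.16, R 4.3.3). Genotypes were compared among the 9 libraries of a treatment, and LPS and its interaction with genotype in all 18. P-values were adjusted by Benjamini-Hochberg over all genes, at a threshold of 0.05. Replicates of a group are separate preparations, and the spread behind a p-value was estimated within groups over all 9 or 18 libraries of the fit. In the fit of 18, untreated and LPS libraries of a number may share a preparation, which only the block takes into account. DESeq2 1.42.0, its size factors, no filter, a filter of 10 counts, limma 3.58.1 on log2(TPM + 1) and log2(TPM + 0.1), other sets of libraries, a block for the replicate number and leaving out each library were alternatives. The fits were tested on simulated data. Tables and figures were made with Python 3.11.15, pandas 2.3.3, scipy 1.17.1 and matplotlib 3.10.9.

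Untreated and LPS libraries of the same number deviated together (correlation over 0.1) in 3 of 3 pairs in GILZ TG, 1 of 3 in WT and 0 of 3 in GILZ KO. Across genotypes 2 of 18 pairs did. All ligands are named, Tsc22d3 and Lyz2 serve as checks, and genes of the other lists are named if called in the comparison or at 5 TPM or more in any group, with a few left to the counts. Marker genes of other cell types are named where a result touches them. A gene of the receptor list is not reported here. The ligands and the lists were chosen with earlier results of these data known.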

Additional observations from a re-analysis of the deposited data

How the results depend on the processing

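Of the log2 fold changes of ligands that were followed over the alternatives, 1143 kept their direction and their side of the threshold, 32 were newly called, 18 lost a call and 8 reversed. The further sign changes without GILZ TG replicate 3 that are given below are not among these 8. Of the reversals 6 are those of Ccl6 after LPS on the TPM scale, with -0.138, -0.0731 and -0.186 in WT, GILZ KO and GILZ TG at a pseudocount of 1 and -0.138, -0.0732 and -0.186 at 0.1. The others are those of Ccl2 after LPS in GILZ KO against GILZ TG (0.10 reported), from -0.0380 to 0.376 when leaving out each GILZ TG replicate. Differences that were not called also changed sign without GILZ TG replicate 3, in untreated GILZ TG against WT for Ccl2 (0.03 to -0.28), Ccl7 (0.12 to -0.24), Ccl12 (0.08 to -0.08) and Ccl22 (0.31 to -0.95) and after LPS for Ccl17 (0.50 to -0.55). In GILZ KO against GILZ TG they did so untreated for Ccl2 (-0.16 to 0.15), Ccl6 (-0.13 to 0.07), Ccl7 (-0.33 to 0.03) and Ccl9 (-0.0016 to 0.17), and after LPS for Ccl6 (-0.0077 to 0.18), Ccl12 (-0.10 to 0.10), Ccl17 (-0.03 to 1.03) and Ccl22 (-0.37 to 0.36). On the TPM scale the split of all called genes was 2114 higher and 8556 lower in WT, 2015 and 8702 in GILZ KO and 2050 and 8588 in GILZ TG, against 4415 and 4622, 4366 and 4658, and 4425 and 4620 with edgeR. The number of ligands called after LPS was 9 to 10 in every genotype under all alternatives, leaving out each replicate included. For untreated GILZ TG against WT it was 0, and 1 with DESeq2, 0 to 1 when leaving out each replicate and 1 without GILZ TG replicate 3 in both treatments, an alternative chosen after seeing the data. For untreated GILZ KO against GILZ TG it was 2, and 1 with limma at either pseudocount, 0 to 2 when leaving out each replicate and 1 without GILZ TG replicate 3 in both treatments. After LPS, GILZ TG against WT gave 0 to 4 and GILZ KO against GILZ TG 0 to 2 when leaving out each replicate, with 4 and 2 without GILZ TG replicate 3 in both treatments. For the interaction of GILZ KO against GILZ TG it was 0 to 1 when leaving out each replicate and 1 without that replicate in both treatments. The cause of these changes was not tested.

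With the replicate block, Ccl6 was called after LPS in WT at 0.47 and in GILZ TG at 0.45, and no other call on a ligand in the LPS comparisons changed. Untreated and LPS libraries of a number deviated together in 3 of 3 pairs in GILZ TG, 1 of 3 in WT and 0 of 3 in GILZ KO. Of 18 libraries, 11 correlated best with their own number. Where the block was fitted across genotypes, the number pairs nothing known. Over all genes, calls ranged over the alternatives from 5 to 79 (12 reported) in untreated GILZ KO against WT, 16 to 665 (81) in GILZ TG against WT and 79 to 1306 (623) in GILZ KO against GILZ TG. After LPS they ranged from 4 to 100 (10), 15 to 1067 (56) and 24 to 1403 (316), and for the interactions from 1 to 20 (2), 1 to 15 (1) and 0 to 150 (16). DESeq2 gave 79 in the first, 100 after LPS and 20 and 150 in the interactions. Depth limits Ccl17 and Ccl22, which had 0 to 2 and 29 to 42 counts per untreated group.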
